A study of Vitis vinifera with 9 samples.

Results

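The transcripts described here encode the photosystems, their light-harvesting antenna and the electron carriers of the thylakoid in grape (Vitis vinifera) leaves after UV-C irradiation. Members were chosen by a search of the annotation for chlorophyll a/b binding, light-harvesting, photosystem, oxygen-evolving, plastocyanin, ferredoxin, cytochrome b6 and thylakoid lumen, leaving out thioredoxins and peroxidases. The search found 60 of the 10471 annotated probe sets, on an array with 16436 probe sets besides the controls. A probe set is the group of short probes that reads 1 transcript, and a gene can have several. Of the 60, 56 were classed by their descriptions as thylakoid proteins and are called core members, and the other 4 only share the word ferredoxin. The core members include LOC100268005, whose identity is unsettled. The core members fall into 17 antenna, 10 photosystem I, 18 photosystem II, 8 electron carrier and 3 thylakoid lumen probe sets, of which 48 read nuclear and 8 read plastid genes. No probe set matched plastocyanin.

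Leaves of the cultivar Hongbaladuo, 30 days old, were detached in the morning, stood in water and kept dark at 25 °C for a short time. Control leaves (0 h) were taken before UV-C. The other groups were taken 6 h and 12 h after the start of an exposure of the lower leaf surface to UV-C at 6 W per square metre for 10 min. Each group had 3 replicates of 6 leaves, and each replicate was hybridized to 1 Affymetrix grape genome array, which makes 9 arrays. Detached leaves that were not irradiated and were kept for 6 h or 12 h are not among the samples, so UV-C cannot be told apart from detachment, time of day or lack of light, and the light during the wait is not given in the sources used here. A whole leaf was extracted, so fewer cells of a type and less RNA per cell cannot be told apart either.

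In the thylakoid membrane, antenna proteins (LHCA around photosystem I, LHCB around photosystem II) bind chlorophyll and pass light energy to the photosystems. Photosystem II takes electrons from water with the help of the oxygen-evolving proteins PsbO, PsbP and PsbQ, the cytochrome b6-f complex and plastocyanin carry them on, and photosystem I hands them to ferredoxin, from which ferredoxin-NADP reductase (FNR) makes NADPH. The reaction centre proteins are encoded in the plastid genome, whereas the antenna and most of the small subunits are encoded in the nucleus and imported.

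Most nuclear core members fell by 12 h after UV-C: of 48, 22 were called lower at 6 h, 43 at 12 h and 30 between the times, while 0, 2 and 1 were called higher. A probe set was called lower or higher where the limma fit gave an adjusted p under 0.05 and the change was at least 2-fold. At 6 h, 22 of 60 members were called lower and 0 higher. Among all 16436 probe sets, 14.7% were called lower and 11.9% higher, and among the 10471 annotated ones, which are the brighter probe sets of the array, 21.1% were called lower. At 12 h, 43 members were called lower and 3 higher, against 17.5% lower and 14.7% higher among all and 25.1% lower among the annotated probe sets. Between 6 h and 12 h, 30 members were called lower and 1 higher, against 4.54% and 2.34% among all and 6.95% lower among the annotated probe sets. The median log2 change of the members was −0.66 at 6 h and −1.82 at 12 h, beside −0.03 and 0.05 for all probe sets. All 60 members were tested, with no filter on low signals in the fit. The search itself reached only the annotated probe sets, which are the brighter ones. Of the 60, 58 were listed in all 3 of the authors' comparisons and 2 were not. A dim ferredoxin probe set, called lower at 12 h, is 1 of these 2.

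**Figure D1:**
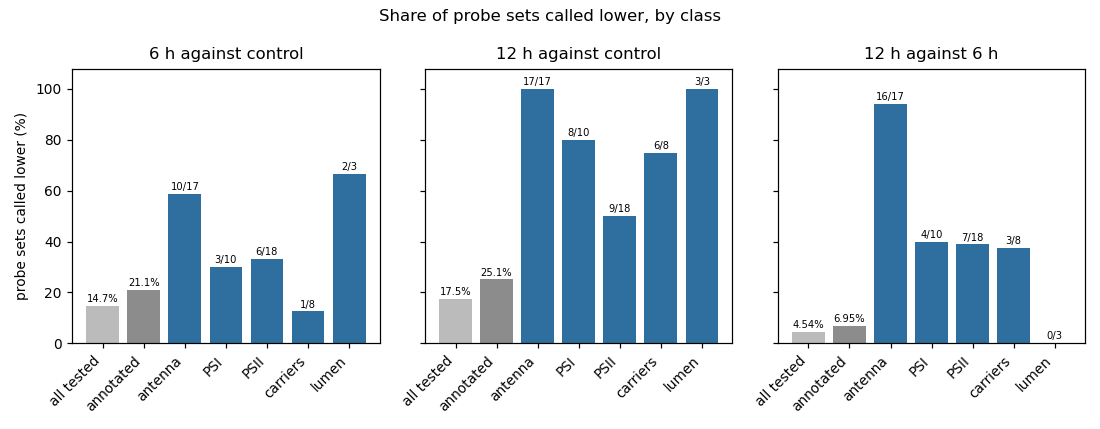
Share of probe sets called lower (percent, y axis) in each comparison for all 16436 probe sets tested, the 10471 annotated ones and the 5 classes of core members, with the number called of the number in the class over each class bar. All 17 antenna probe sets were called lower at 12 h, and 16 of them again between 6 h and 12 h.

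The pattern of calls differed among the core members, and differences between members were not tested. In 17, the transcript was called lower at 6 h and lower again between 6 h and 12 h. A further 13 were called lower at 12 h and between the times but not at 6 h, and 8 were called at 12 h alone. In 5 the call at 6 h was not followed by one between 6 h and 12 h: PsaD LOC100242600, PetC LOC100256300, the assembly factor HCF136 and the lumen proteins TL17.4 and TL21.5. The remaining 13 comprised 2 that were called higher and 11 with no call, namely the 8 plastid probe sets, 1 probe set of ferredoxin 3, PsbR and PsbS. Similar changes close to the 2-fold limit can fall on either side of it. At 6 h, −0.99 in the antenna protein CP29 was not called, and −1.06 in oxygen-evolving enhancer 3 was.

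**Figure D2:**
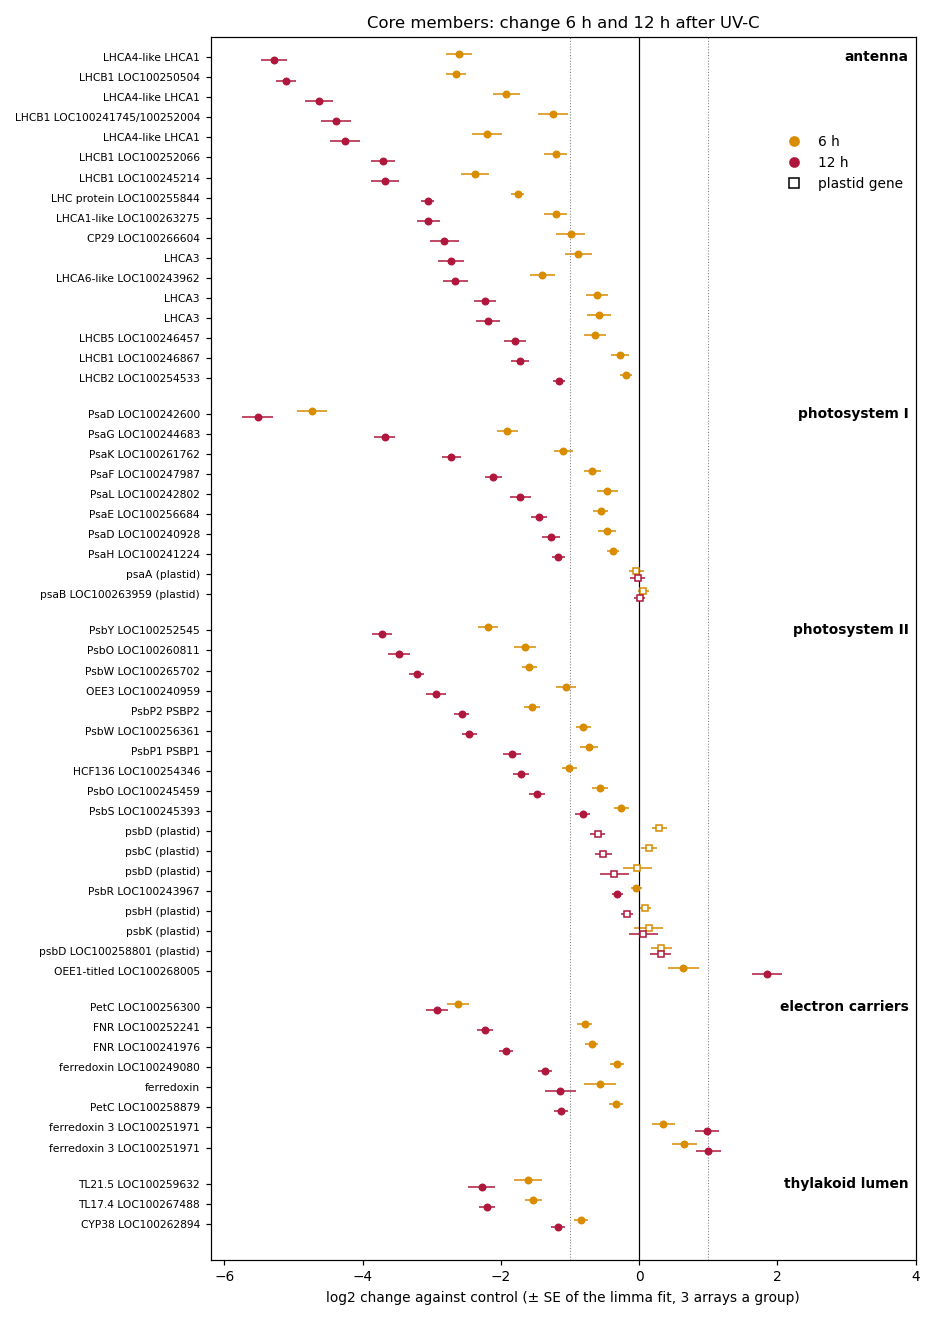
Log2 change against the control (x axis) of each of the 56 core members, by class and by size of the change at 12 h. Points are 6 h and 12 h, bars are the standard error of the limma fit with 3 arrays a group, open squares are plastid genes and dotted lines mark 2-fold. The changes at 12 h run from −5.52 for PsaD LOC100242600 to 1.85 for LOC100268005, and those of the plastid genes from −0.60 to 0.31.

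Every antenna probe set fell by 12 h. At 6 h, 10 of its 17 probe sets were called lower, with a median log2 change of −1.21, and at 12 h all 17 were, with a median of −3.05 and a range from −5.28 to −1.16. The median was −3.25 for the 8 LHCB probe sets and −2.88 for the 8 LHCA probe sets at 12 h.

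Among the LHCA proteins, the gene with the symbol LHCA1, which the annotation describes as subunit 4 of the photosystem I antenna and which is called LHCA4-like here, had the lowest log2 changes. It is read by 3 probe sets. The first gave signals of 5760, 4530 and 5068 in the control, 1000, 710 and 816 at 6 h, and 154, 97.9 and 149 at 12 h. No array of 1 group reached those of another, and at 12 h 2.57% of the control level was left, a log2 change of −5.28 ± 0.19 (SE, n = 3 a group, adjusted p = 1.59e-08 from limma). The other probe sets of the gene gave −4.63 ± 0.20 and −4.26 ± 0.22, so that all 3 showed the same order of the groups.

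LHCA3, another antenna protein of photosystem I, was also read by 3 probe sets. They were not called at 6 h, with log2 changes from −0.88 to −0.58, and all 3 were called lower at 12 h, with −2.72 ± 0.19, −2.23 ± 0.16 and −2.19 ± 0.17. In one of them the 12 h signals were 968, 1247 and 725 against 7441, 5702 and 5915 in the control. The single probe sets of the LHCA1-like LOC100263275 and the LHCA6-like LOC100243962 fell at both times, to 43.4% and 38% of the control at 6 h and to 12.1% and 15.8% at 12 h. A light-harvesting complex protein without a closer name, LOC100255844, fell to 29.5% and then to 12%, with 12 h signals of 335, 328 and 348 that hardly differed among the arrays.

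LHCB1, the major light-harvesting protein of photosystem II, was read by 5 probe sets for different genes, and these differed widely. LOC100250504 had signals of 9939, 8442 and 10101 in the control, 1539, 1307 and 1693 at 6 h, and 325, 277 and 229 at 12 h. With −2.65 ± 0.15 at 6 h and −5.11 ± 0.15 at 12 h (adjusted p = 5.24e-09, limma) it was the lowest of the LHCB1 probe sets. LOC100241745 and LOC100252004, which are neighbours in the RefSeq annotation of the genome and share 1 probe set, had most of their decrease after 6 h. Their signals were 14053, 11207 and 12113 in the control, 6819, 4000 and 5197 at 6 h, and 753, 476 and 581 at 12 h. That is −1.25 ± 0.22 by 6 h and a further −3.14 ± 0.22 between the times, the strongest decrease between 6 h and 12 h of any member.

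A further 2 LHCB1 genes, LOC100252066 and LOC100245214, ended near each other at 12 h, with −3.71 ± 0.17 and −3.68 ± 0.20, but LOC100245214 had fallen 5.22-fold by 6 h and LOC100252066 2.32-fold. LOC100246867 changed least. Its signals of 21004, 20431 and 21550 in the control and 18806, 15663 and 17395 at 6 h lay close together, and the change at 6 h was not called (−0.28 ± 0.13, adjusted p = 0.11, limma). By 12 h they were 7772, 5549 and 6029, below all arrays of the other groups, and the decrease of −1.72 ± 0.13 was called.

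LHCB2 LOC100254533 pairs with LHCB1 in the mobile antenna trimers and had the smallest change of the class. It had signals of 12575, 11544 and 11970 in the control, 10590, 10438 and 10574 at 6 h, and 5731, 5477 and 4987 at 12 h. All arrays at 6 h lay below the control, by too little to be called (−0.19 ± 0.09, adjusted p = 0.11, limma), and at 12 h 44.8% was left. The minor antenna proteins that link the trimers to the core fell at 12 h, CP29 (LOC100266604) to 14.1% and LHCB5 (LOC100246457) to 28.6% of the control.

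**Figure D3:**
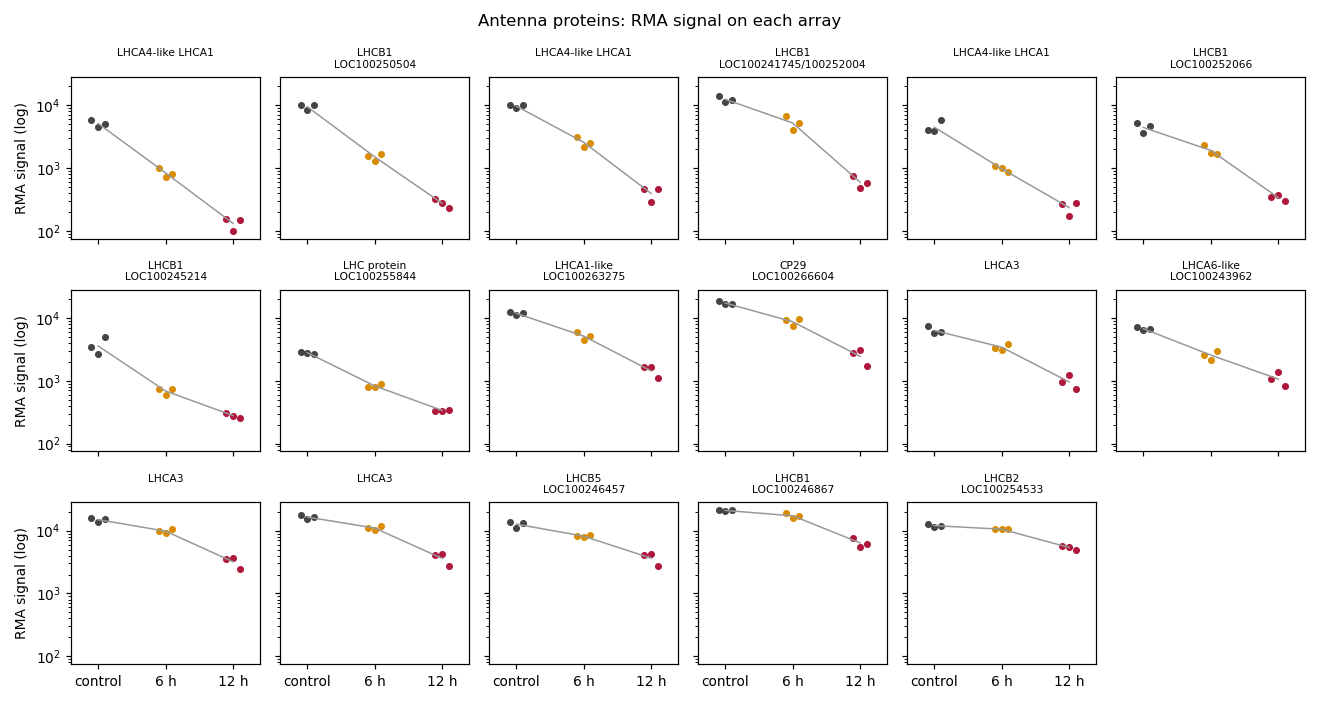
RMA signal on a log axis (y) in the control, at 6 h and at 12 h for the 17 antenna probe sets, ordered by the change at 12 h. Each point is 1 array, the line joins the geometric means, and in every panel the 3 arrays at 12 h lie below the 3 control arrays.

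In photosystem I, all 8 nuclear probe sets were called lower at 12 h and 3 at 6 h (PsaD LOC100242600, PsaG and PsaK), whereas the 2 plastid probe sets for the reaction centre proteins psaA and psaB were not called. PsaD, which binds ferredoxin on the stromal side, had the largest decrease of all members at both times. The signals of LOC100242600 were 3886, 3963 and 2253 in the control, 124, 145 and 102 at 6 h, and 64.9, 67.8 and 81.5 at 12 h. Nearly all of the decrease was present at 6 h, with −4.73 ± 0.22 (26.6-fold, adjusted p = 1.11e-07, limma), and the step to 12 h of −0.79 ± 0.22 was not called. The control arrays of this gene are uneven, with the third well below the rest, but still far above the treated arrays.

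PsaG (LOC100244683), a membrane subunit beside the antenna, fell steadily, with signals of 14145, 12612 and 13872, then 3837, 3267 and 3693, then 1317, 1035 and 856. The log2 changes were −1.91 ± 0.15 and −3.68 ± 0.15. PsaK (LOC100261762), also at the antenna side, fell to 46.7% and 15.2% of the control. PsaF (LOC100247987), the docking site of plastocyanin, was not called at 6 h (−0.68 ± 0.12) and fell at 12 h (−2.11 ± 0.12).

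The remaining nuclear subunits PsaL, PsaE and PsaH and the second PsaD gene, LOC100240928, were not called at 6 h and had log2 changes between −1.72 and −1.17 at 12 h. PsaH (LOC100241224), which with PsaL forms the docking site of mobile antenna, kept 77% of the control signal at 6 h and 44.5% at 12 h. The smallest nuclear change of the photosystem was thus still a called 2.25-fold decrease.

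In photosystem II, 9 of the 12 nuclear probe sets were called lower at 12 h and 6 at 6 h. PsbY (LOC100252545), a small membrane subunit, had signals of 15274, 14640 and 15703 in the control, 3646, 2925 and 3486 at 6 h, and 1288, 1254 and 949 at 12 h. These groups were far apart, with −2.19 ± 0.14 at 6 h and −3.72 ± 0.14 at 12 h (adjusted p = 1.62e-08, limma). PsbW, another small subunit, was read by 1 probe set for each of 2 genes, LOC100265702 with −3.22 ± 0.11 and LOC100256361 with −2.46 ± 0.11 at 12 h.

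Of the probe sets described as PsbO, PsbP or PsbQ of the oxygen-evolving complex, 5 were called lower at 12 h and 1, LOC100268005, whose identity is unsettled, was called higher. PsbO, which holds the manganese cluster in place, was called lower in LOC100260811 and LOC100245459. LOC100260811 had signals of 13116, 11752 and 11842 in the control, 4002, 3186 and 4618 at 6 h, and 1244, 1159 and 917 at 12 h. LOC100245459 had signals of 18294, 14903 and 17127, then 11122, 10911 and 11809, then 6708, 5952 and 5337. The first of these had lost more by 6 h (31.8% left) than the second had by 12 h (35.7% left). PSBP2 and PSBP1, the genes of PsbP, had log2 changes of −2.57 ± 0.11 and −1.84 ± 0.13 at 12 h. The probe set described as oxygen-evolving enhancer 3, the protein known as PsbQ, fell at both times (LOC100240959, −1.06 ± 0.14 and −2.94 ± 0.14), and its 6 h call lies close to the 2-fold limit. HCF136 (LOC100254346), a lumen factor for the assembly of the reaction centre, had −1.01 ± 0.11 and −1.71 ± 0.11.

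Of the nuclear photosystem II probe sets, 2 were not called at either time. PsbS (LOC100245393), which triggers the dissipation of excess light energy as heat, had signals of 16997, 15659 and 15708 in the control and 9580, 10055 and 7909 at 12 h. These did not overlap, and the adjusted p of 9.40e-05 (limma) was under the threshold, but the log2 change of −0.82 ± 0.11 was under 2-fold. PsbR (LOC100243967), which assists the oxygen-evolving proteins, had 24027, 24402 and 23909 in the control, 22717, 23022 and 24446 at 6 h and 18983, 20127 and 18822 at 12 h, with a log2 change of −0.32 ± 0.08.

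A single probe set of this class went the other way. LOC100268005 was described as an oxygen-evolving enhancer 1 protein in the annotation, while the study also lists it under the name of another enzyme, so that its identity is unsettled. Its signals were 362, 450 and 510 in the control, 568, 962 and 581 at 6 h, and 1525, 1362 and 1875 at 12 h. It was the only member called higher between 6 h and 12 h (1.21 ± 0.22, adjusted p = 0.0033, limma), after 0.64 ± 0.22 at 6 h and with 1.85 ± 0.22 at 12 h against the control.

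Among the electron carriers, 6 of 8 probe sets were called lower at 12 h and 1 at 6 h. The latter was PetC, the Rieske iron-sulfur protein of the cytochrome b6-f complex, in the gene LOC100256300. Its signals were 1446, 1337 and 895 in the control, 203, 183 and 202 at 6 h, and 163, 155 and 157 at 12 h. As in PsaD LOC100242600, most of the decrease was present at 6 h (−2.62 ± 0.16, adjusted p = 7.07e-07, limma), with −0.31 ± 0.16 after that. The other PetC gene, LOC100258879, had 13796, 14290 and 14035, then 10790, 10893 and 11550, then 6516, 7217 and 5667. It was not called at 6 h and fell 2.18-fold by 12 h.

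The FNR genes LOC100252241 and LOC100241976 had log2 changes of −0.79 ± 0.11 and −0.69 ± 0.10 at 6 h, neither of them called, and −2.23 ± 0.11 and −1.93 ± 0.10 at 12 h, both called. Ferredoxin LOC100249080 had signals of 24731, 25814 and 24138 in the control, 20215, 18892 and 20892 at 6 h, and 8587, 10229 and 10421 at 12 h. It fell at 12 h (−1.36 ± 0.10). A ferredoxin probe set without a gene symbol had low signals throughout, 60.9, 66.9 and 55.1 in the control and 24.8, 20.7 and 40.7 at 12 h. Its call at 12 h (−1.14 ± 0.23) was lost without the second 12 h array and with 16 added to each signal, with log2 changes of −0.94 and −0.81.

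Ferredoxin 3 was the exception among the carriers. Its gene LOC100251971 is read by 2 probe sets, and both were above the control in every array at 12 h. The first had signals of 151, 179 and 228 in the control, 303, 279 and 282 at 6 h, and 304, 352 and 462 at 12 h, and was called higher at 12 h (1.00 ± 0.18, adjusted p = 8.00e-04, limma). The second, with 489, 590 and 695, then 786, 727 and 729, then 952, 1116 and 1438, gave 0.98 ± 0.17 and missed the 2-fold limit. So the calls of the pair differ where the changes hardly do. The call of the first was lost with the arrays centred on the hybridization controls (0.86), with 16 added to each signal (0.94), and without the third 12 h array (0.83) or the first (0.86) or second (0.98) control array. The second was called higher with the arrays centred on their median (1.12), without the first 12 h array (1.11) and without the third control array (1.10).

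All 3 thylakoid lumen probe sets were called lower at 12 h and 2 at 6 h, and none between the times. The lumen proteins TL21.5 (LOC100259632) and TL17.4 (LOC100267488) had −1.61 ± 0.20 and −1.53 ± 0.12 at 6 h and −2.28 ± 0.20 and −2.20 ± 0.12 at 12 h. TL17.4 had signals of 1519, 1607 and 1242, then 534, 468 and 498, then 336, 321 and 292. CYP38 (LOC100262894), a cyclophilin that takes part in the assembly of photosystem II, was not called at 6 h (−0.84 ± 0.10) and fell 2.25-fold by 12 h.

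Plastid and nuclear members gave different counts, a split that was chosen after the values were seen and was not tested. Of the 48 nuclear core members, 22 were called lower at 6 h and 43 at 12 h, with median log2 changes of −0.86 and −2.23. Of the 8 plastid members, none was called in any comparison under limma or under any of the 3 other scalings. Among all probe sets, 14.7% were called lower at 6 h, 17.5% at 12 h and 4.54% between the times. At these shares few of 8 probe sets would be called, so the absence of calls is not a result about plastid genes. At 12 h, 1 of the psbD probe sets (−0.60 ± 0.11, adjusted p = 7.34e-04, limma) and psbC (−0.52 ± 0.12, adjusted p = 0.0036, limma) passed the p threshold but were under 2-fold. The median of the 8 was 0.11 at 6 h and −0.10 at 12 h, and both medians changed sign under another scaling, to −0.05 with the arrays centred on the hybridization controls and to 0.04 with the arrays centred on their median. The summed signal of the nuclear members went from 457631 to 492151 in the control arrays to 262292 to 294147 at 6 h and 118705 to 140351 at 12 h. The summed signal of the plastid members was 33317 to 35650 in the control, 34732 to 38463 at 6 h and 29038 to 33095 at 12 h, so that the 12 h arrays lay just below the control range. The labelling kit starts from poly(A) tails, which plastid messengers mostly lack, and what part this has in the plastid values was not tested.

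The reaction centre genes of photosystem I had the smallest log2 changes of all members at 12 h. psaA had signals of 5746, 6544 and 5863 in the control, 6551, 5130 and 6021 at 6 h, and 6085, 5639 and 6120 at 12 h. psaB had 9474, 9627 and 9707, then 10437, 9807 and 9775, then 9325, 9548 and 10215. In both, control and 12 h arrays overlapped, with log2 changes of −0.02 ± 0.11 and 0.01 ± 0.08 at 12 h.

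The plastid genes of photosystem II were less even. The 3 probe sets for psbD, the D2 reaction centre protein, did not move together: their log2 changes at 12 h were −0.60 ± 0.11, −0.36 ± 0.21 and 0.31 ± 0.15. The first of them had 4436, 4751 and 4051 in the control, 5408, 5014 and 5804 at 6 h, and 2666, 2932 and 3123 at 12 h, above the control at 6 h and below it at 12 h in every array. Between the times it gave −0.90 ± 0.11 (adjusted p = 3.66e-04, limma), short of 2-fold. psbC, the core antenna protein CP43, had 4098, 3524 and 3755, then 4764, 3956 and 3867, then 2563, 2924 and 2457. It overlapped the control at 6 h and lay below it in every array at 12 h (−0.52 ± 0.12). In plants psbD and psbC lie in 1 transcription unit. psbH and psbK, small subunits of photosystem II, had −0.18 ± 0.09 and 0.06 ± 0.21 at 12 h.

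**Figure D4:**
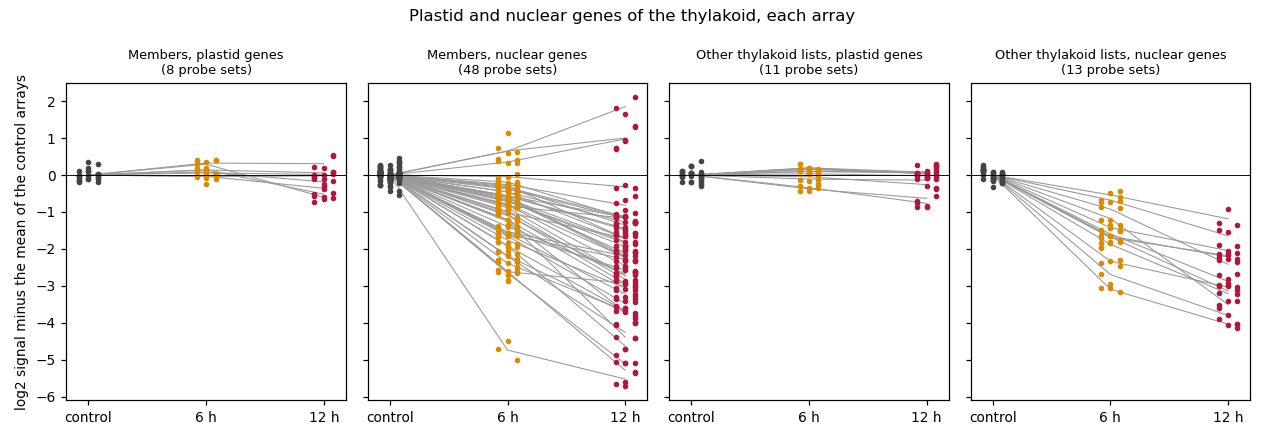
Log2 signal of each array minus the mean of the control arrays (y axis) for plastid and nuclear core members and for plastid and nuclear probe sets of other thylakoid lists. Points are arrays and lines join group means. None of the 8 and 11 plastid probe sets was called, while 43 of 48 and 13 of 13 nuclear ones were called lower at 12 h. Among all probe sets, 17.5% were called lower at 12 h.

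Several proteins are encoded by a pair of nuclear genes, and the gene of a pair with the larger decrease at 12 h was set against the other one. For PsaD, PetC, PsbO, PsbP, PsbW and FNR, the ratio of the pair was taken on each array and compared between groups with an exact, 2-sided permutation test, which with 3 arrays against 3 cannot go below p = 0.10. Over the 6 pairs and 3 comparisons, 14 of 18 tests reached that smallest value (0.13 after Benjamini-Hochberg adjustment), and none can pass a threshold of 0.05. How often other pairs of probe sets reach it was not counted. At 12 h the log2 change of LOC100242600 minus that of LOC100240928 (PsaD) was −4.25 ± 0.38 (SE). For LOC100256300 minus LOC100258879 (PetC) it was −1.80 ± 0.24, and for LOC100260811 minus LOC100245459 (PsbO) −1.99 ± 0.08. The gap was smaller for PsbW and PsbP, with −0.76 ± 0.17 and −0.74 ± 0.09, and for FNR, with −0.30 ± 0.06.

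In 5 of the 6 pairs the ratios at 6 h did not overlap those of the control. The share of such pairs among other probe sets was not counted, so this number is not a result about these pairs. For FNR the ratios at 6 h and in the control overlapped (−0.10 ± 0.04), and those at 6 h and 12 h did not (−0.20 ± 0.07). For PsaD the gap was −4.27 ± 0.33 at 6 h, with a difference of 0.03 ± 0.28 between the times, and for PsbP and PsbW the differences between the times were 0.09 ± 0.10 and 0.01 ± 0.13. For PetC it narrowed by 0.48 ± 0.12 from 6 h to 12 h, and for PsbO it widened (−0.91 ± 0.14), in both cases with no overlap of the ratios. In 4 of the 6 pairs (PsaD, PsbO, PsbP and PsbW) the gene that changed less is read by a probe set with the suffix _s_at. Such a probe set can match more than 1 transcript, and the part of such matches in the gap was not tested. In all 6 pairs the gene that changed less also had the brighter probe set in the control. The mean control signals were 10615 against 3367 for PsaD, and 16775 against 12237 for PsbO. The part of signal brightness in the gaps was not tested.

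**Figure D5:**
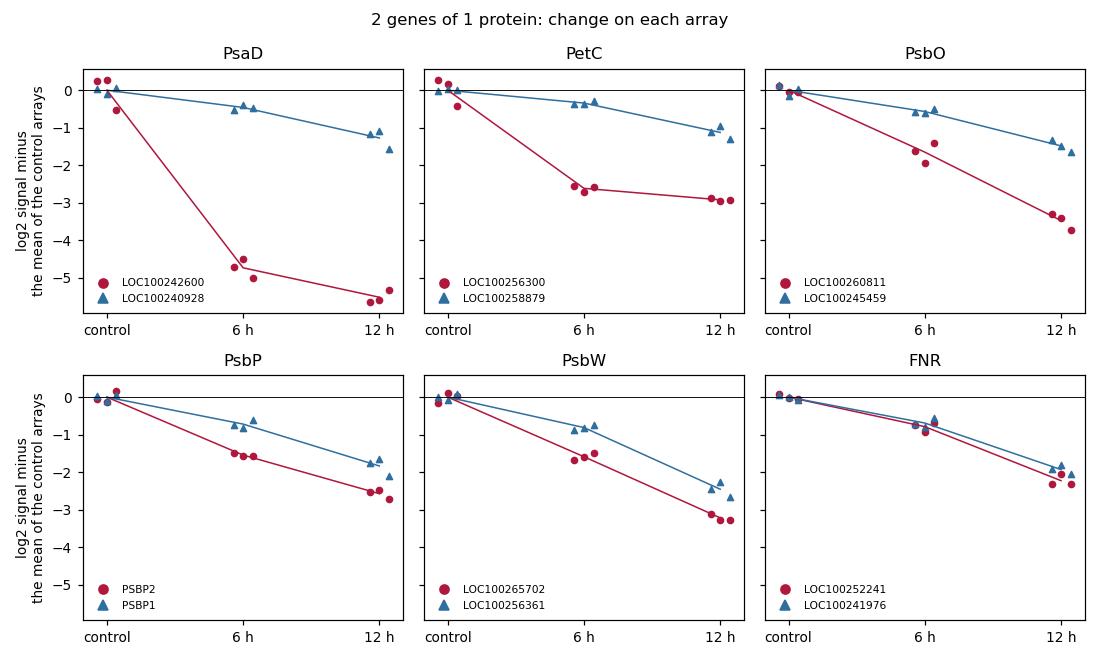
Log2 signal of each array minus the mean of the control arrays (y axis) for the 2 genes of PsaD, PetC, PsbO, PsbP, PsbW and FNR in the control, at 6 h and at 12 h. Points are arrays and lines join group means, and PsaD LOC100242600 stands at −4.73 at 6 h and −5.52 at 12 h while LOC100240928 stands at −0.46 and −1.27.

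Other genes tied to the thylakoid, from lists that are no part of the search, also had calls among nuclear and none among plastid probe sets. These lists also hold regulators and assembly factors, which are not subunits of the complexes. The 9 chloroplast ATP synthase probe sets comprise 2 nuclear ones, both called lower at 12 h (LOC100251062, −2.88 ± 0.11, and LOC100250997, −2.42 ± 0.16), and 7 plastid ones, none called, with log2 changes from −0.77 to 0.07. The lowest of the plastid ones (−0.77 ± 0.15, adjusted p = 0.0013, limma) and another (−0.63 ± 0.16, adjusted p = 0.0058, limma) passed the p threshold but were under 2-fold. In both, every 12 h array lay below the control. Of the 5 probe sets for the NAD(P)H dehydrogenase-like complex, which returns electrons from photosystem I to the chain, the nuclear NDHM fell (−1.67 ± 0.16 and −3.14 ± 0.16) and the 4 plastid ones were not called. Both probe sets for HCF101 (LOC100250898), a factor that supplies iron-sulfur clusters to photosystem I, fell at 12 h, with −1.65 ± 0.13 and −1.18 ± 0.17.

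The early light-induced protein ELIP (LOC100263179), a relative of the antenna proteins known for its induction by strong light, had signals of 4886, 4141 and 3580 in the control, 1787, 1549 and 2256 at 6 h, and 363, 532 and 255 at 12 h. It was called lower at both times, with −1.18 ± 0.25 and −3.51 ± 0.25, and so was the one-helix protein LOC100263187, with −1.69 ± 0.12 and −2.18 ± 0.12. Plastid sigma factors, nuclear proteins that direct the plastid RNA polymerase to photosynthesis genes, were lower in all 6 probe sets at both times, with a median log2 change of −2.10 at 6 h and −3.12 at 12 h. LOC100256191 had 1951, 1663 and 1779, then 216, 216 and 200, then 120, 107 and 102, while the plastid members listed above were not called. Over all these lists, 10 of 13 nuclear probe sets were called lower at 6 h and 13 of 13 at 12 h. Of these 13, 6 read sigma factors and 2 read HCF101. None of the 11 plastid ones was called lower at either time. Among all probe sets, 14.7% were called lower at 6 h and 17.5% at 12 h, and at these shares few of 11 would be called. The search found no probe set for state transition kinases, VIPP1 or GLK factors.

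None of the 4 members that share only a word was called lower. Sulfite reductase (LOC100245032), an enzyme of sulfur assimilation, had signals of 182, 252 and 253 in the control, 431, 430 and 480 at 6 h, and 480, 710 and 569 at 12 h, and rose at 12 h (1.35 ± 0.17, adjusted p = 7.00e-05, limma). Its change at 6 h of 0.98 ± 0.17 was just under 2-fold. Ferredoxin-dependent glutamate synthase (LOC100233082), which takes part in nitrogen assimilation, was read by 3 probe sets with log2 changes from −0.86 to −0.42 at 12 h, none of them called.

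Markers of leaf cells moved with the groups as well. Of 15 probe sets for mesophyll enzymes of carbon fixation and photorespiration, such as the small subunit of rubisco, rubisco activase and carbonic anhydrase, 9 were called lower and 0 higher at 12 h, and their summed signal went from 124584 to 138313 in the control to 54889 to 64308. All of the enzymes searched for were found, but the search is of the annotation, so this does not bear on the tissue. Of 16 probe sets for epidermal lipid transfer proteins and 3-ketoacyl-CoA synthases, 12 were called lower and 1 higher at 12 h, with summed signals of 97235 to 112814 in the control and 34724 to 39011 at 12 h. One of those called lower, LOC100247295, is described as a 3-ketoacyl-CoA synthase in the tables and also appears under the name chalcone synthase in the study. Of 4 vascular probe sets 2 were called lower at 12 h, with sums of 1670 to 2013 and 1108 to 1410. Among all probe sets, 17.5% were called lower and 14.7% higher at 12 h, and among the annotated ones 25.1% were called lower. The part of cell types in the members' decrease was not tested.

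Asparagine synthetase, a gene family known from work in Arabidopsis to rise in the dark, was higher in both probe sets found. LOC100241610 had signals from 18.3 to 21.8 in the control, 281, 1001 and 55.1 at 6 h, and 2044, 453 and 1559 at 12 h, uneven among the arrays but always above the control (log2 change 3.61 ± 0.91 and 5.79 ± 0.91). LOC100240866 had 1.07 ± 0.11 at 12 h. The same search for the senescence genes SAG12, pheophorbide a oxygenase, STAY-GREEN and chlorophyllase gave no further probe set. The part of darkness in the members' decrease was not tested.

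Arrays of 1 group correlated at 0.988 or more over all probe sets, and no array stood apart. Among the nuclear core members the median log2 difference from the control mean was −0.92 to −0.76 on the 6 h arrays and −2.61 to −2.03 on the 12 h arrays, the lowest being the third 12 h array. The log2 signal of actin at its 3′ end exceeded that at its 5′ end by 4.37 to 4.82 in the control, 4.49 to 4.71 at 6 h and 4.42 to 4.60 at 12 h, which overlap. This excess of the 3′ end was large on every array, and its bearing on the values was not tested. For the 28 nuclear core members with a mean control signal above 8192 the median log2 change was −0.66 at 6 h and −2.02 at 12 h, with 9 and 26 called lower. For the other 20 it was −1.47 and −2.62, with 13 and 17 called lower. The files hold no saturation or detection flags, and the part of saturation in the smaller changes was not tested.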

How the data were processed

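Biotin-labelled cRNA was hybridized to 9 Affymetrix V. vinifera arrays. The deposited values are RMA intensities on a linear scale (3.8 to 30874), 1 per probe set and array, which the authors background-corrected, quantile-normalized and summarized. The version of RMA is not given in the sources used here. The authors' 3 comparison tables repeat these intensities within a relative difference of 9.5e-06 and supplied the annotation. Their SAM scores, q-values and fold changes were not used.

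The 165 control probe sets were left out, log2 was taken, and 16436 probe sets were fitted in limma 3.58.1 (R 4.3.3) with lmFit and eBayes over the 3 groups together, with Benjamini-Hochberg adjustment over all probe sets of a comparison. Changes are given with the standard error of this fit. The 3 arrays of a group limit the precision, and the labels do not say whether replicates came from separate vines, so that p-values measure the spread between these samples. Simulated data with 200 changed probe sets served to check the script. Per-array signals are listed in the order of the replicate numbers. Signals of different probe sets were not compared as amounts of transcript, since probes differ in brightness. The tables list the brighter probe sets, with a median log2 signal of 8.42 beside 3.58 for those not listed.

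Members and gene lists were chosen with earlier results of these data known. Named members were, per class, up to 5 with the lowest and 2 with the highest log2 change at 12 h, all called higher or at 6 h alone (none), probe sets of 1 gene with different calls, and up to 3 of those sharing a word. Other members named, the gene pairs and the plastid split were chosen after the values were seen. Gene names come from the tables, the study's text and the RefSeq table of assembly ASM3070453v1, which held 43 of the 47 gene IDs. Antisense and near-identical genes cannot be told apart by some probe sets. Alternatives covered the threshold, scaling, log scale, variance estimate, filters, search, probe sets of 1 gene, replicate block and each array left out. Sequences and promoters were not analysed here. Figures were made with matplotlib 3.10.9.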

Additional observations from a re-analysis of the deposited data

Results flagged for a closer look

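The response of the members differed between the 2 times. In the comparison of 12 h with 6 h, which tests the difference itself, 30 of the 60 members were called lower and 1 higher (LOC100268005), beside 4.54% lower and 2.34% higher among all probe sets. Of the 30, 16 were antenna probe sets. Groups of 3 arrays are too small for a test of single outlying arrays.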

How the results depend on the processing

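The counts of members called lower in the 3 comparisons (22, 43 and 30) stayed within 1.5 times of these values under 13 of the 15 kinds of alternative at 6 h and 14 at 12 h and between the times, each array left out included. With no fold threshold 41 members were called lower at 6 h, and with the search restricted to gene titles, which finds 13 members, 4, 8 and 8 were. Without each array in turn the counts were 20 to 23, 42 to 44 and 27 to 31. A replicate block gave 22, 43 and 30, and shared all of these members with the fit without it. Arrays of the same replicate number did not deviate together from their group means (r from −0.162 to 0.138). With means of 3 arrays this cannot show whether samples of 1 number were taken as a set. Centring the arrays on their median or on the hybridization controls shifted the overall median (log2) from −0.03 to 0.11 or −0.19 at 6 h and from 0.05 to 0.19 or −0.10 at 12 h.

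Among the named members the direction changed only for plastid genes near 0, and the cause was not tested. psaA gave 0.09 at 6 h and 0.12 at 12 h with the arrays centred on their median, 0.01 at 12 h with a further quantile normalization, and −0.12 to 0.06, −0.06 to 0.03 and −0.08 to 0.10 in the 3 comparisons without single arrays. psaB gave −0.10 at 6 h and −0.13 at 12 h with the arrays centred on the hybridization controls, 0.02 between the times with a further quantile normalization, and −0.03 to 0.04 at 12 h without single arrays. psbD LOC100258801 gave 0.00 and 0.01 between the times with the hybridization controls and the quantile normalization, and −0.12 to 0.04 without single arrays. Calls lost at the 2-fold limit included OEE3 and PsaK at 6 h without the second 6 h array (−0.98 and −0.94) or with median centring (−0.93 and −0.96), PSBP2 between the times without the third 12 h array (−0.96), and ferredoxin LOC100249080 between the times without the first 12 h array or with a further quantile normalization (−0.95 in both). The annotation covers only probe sets listed in the comparison tables, and signals near the bottom of the scale limit what the dim ferredoxin probe set can show.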
